A study of Mus musculus with 20 samples.

Results

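Muscle side population (SP) cells were compared with muscle main population (MP) cells on 10 of the series' 20 arrays, the 5 titled muscle SP and the 5 titled muscle MP. Both populations came from skeletal muscle of adult C57BL/10SnJ mice, and no treatment is given. The other 10 arrays hold the same populations of bone marrow, 5 of each. All 20 arrays measured total RNA. The labels do not say whether arrays of a group came from separate mice, pooled mice or one sort. The p-values therefore measure the spread between arrays within the 4 groups, which may be technical.

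SP cells are sorted by flow cytometry as the small set of cells that keep little of the DNA dye Hoechst, which they pump out through ABC transporters, above all Abcg2. MP cells are those that keep the dye. In blood-forming tissue the gate is known for holding stem cells, and in muscle it is known for holding vessel cells, blood cells and a few myogenic cells together. A change in such sorted mixtures can be a change in the share of a cell type or in the RNA of each cell, which cannot be told apart here.

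Values are log2 signal intensities after quantile normalization, raised to a floor of 6.71 (signal 105), below which levels were not ordered. Where some arrays of a group lay at the floor, the floor stands for their level, so the fitted fold of such a gene depends on it. Of 10310 probe sets above the floor on at least 5 arrays, 526 (5.10%) were higher and 685 (6.64%) lower in muscle SP cells at a limma adjusted p under 0.05. Of these, 236 were at least 2-fold higher and 415 at least 2-fold lower on the fitted scale. The fit pooled the spread of the 4 groups, so a gene at the floor on all marrow arrays took in arrays without spread. Its SE and p-value can be smaller than the muscle arrays alone would give. Dpt, with an SD of 1.11 in muscle SP and 0.0 in both marrow groups, is an example. Fitting the muscle arrays alone ended 14 of the 136 named calls. The median difference over all probe sets was 0.03. With 1 probe set for each of 7295 genes (the brightest), 360 genes (4.93%) rose and 547 (7.50%) fell. The last pair of shares is the background for the gene lists below. Lists share members, so a called gene can count in several of them. In 825 of the 1211 called probe sets (68.1%) the 5 SP values did not overlap the 5 MP values, against 10.1% of all probe sets tested. The genes with named values were chosen by size of change within their list, and a gene named for another reason is marked.

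**Figure D1:**
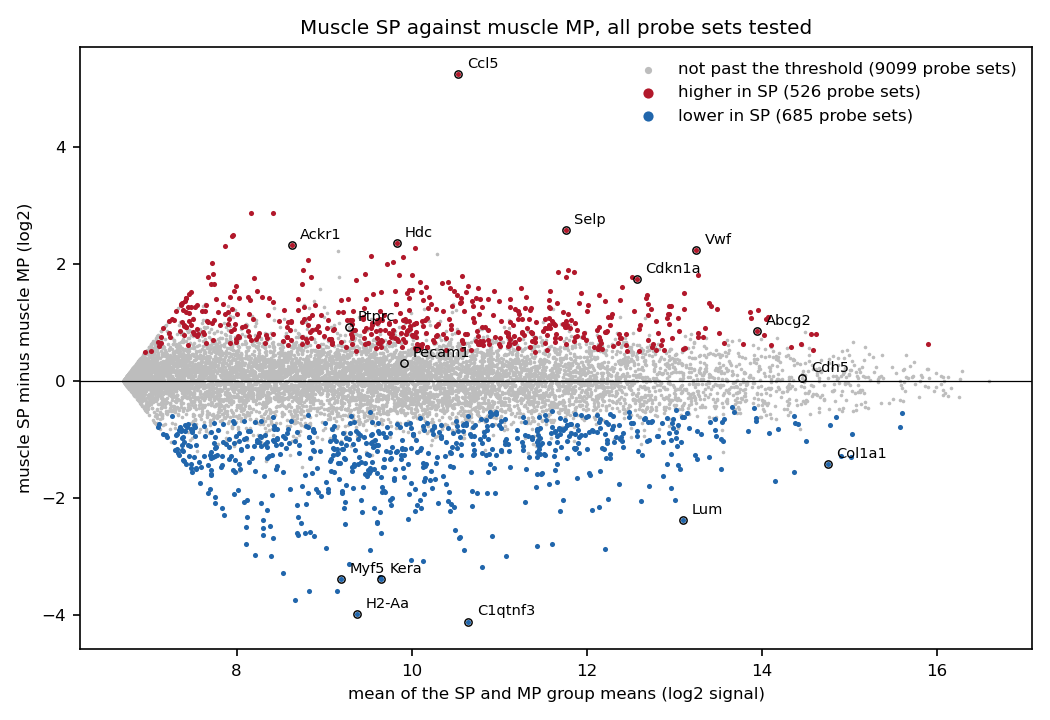
Difference between muscle SP and muscle MP cells (log2, vertical axis) against the mean of both group means (log2 signal, horizontal axis) for 10310 probe sets. Red points (526) passed the threshold as higher in SP and blue points (685) as lower; circled genes are named, among them the endothelial genes Pecam1 and Cdh5 and the blood cell gene Ptprc, which did not pass.

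The 5 SP arrays were less alike than the 5 MP arrays. The correlation between arrays over the probe sets tested had a median of 0.942 within SP (lowest 0.911) and 0.971 within MP (lowest 0.969). In a principal component analysis of the 10 muscle arrays, the first axis (34.4% of the variance) parted SP from MP. On the second axis (22.1%) SP 1 stood apart at 58, with the other SP arrays at -26.2 to -0.3 and the MP arrays at -9.5 to 15.9. Blood cell genes set SP 1, 2 and 3 apart from SP 4 and 5. Hba-a1, a globin of red cells, was 14.04, 13.91 and 13.38 on the first 3 and 10.27 and 10.44 on the other 2, and 12.74, 12.42, 12.43, 11.64 and 10.26 on the MP arrays. The mean of 27 pan-leukocyte genes was 8.66, 8.98 and 9.39 on SP 1 to 3, 8.07 and 8.01 on SP 4 and 5, and 8.31 to 8.60 on the MP arrays. The ratio of 3' to 5' GAPDH signal, which rises as RNA is shorter, was 3.34 to 4.79 (log2) in SP and 1.88 to 3.45 in MP, and that of actin 1.88 to 2.99 and 0.88 to 2.08. SP 1 had the highest ratio of both. The part of RNA length in the results was not tested beyond the fit with the GAPDH ratio as a covariate. That fit ended the calls of 18 of the 136 genes named by size or as markers that had passed, each given below, and it is named beside any list count of 2 or more that it moved by over 1.5 times. Each count below was also taken without SP 4 and 5 and without SP 1, 2 and 3, choices made after the values were seen.

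**Figure D2:**
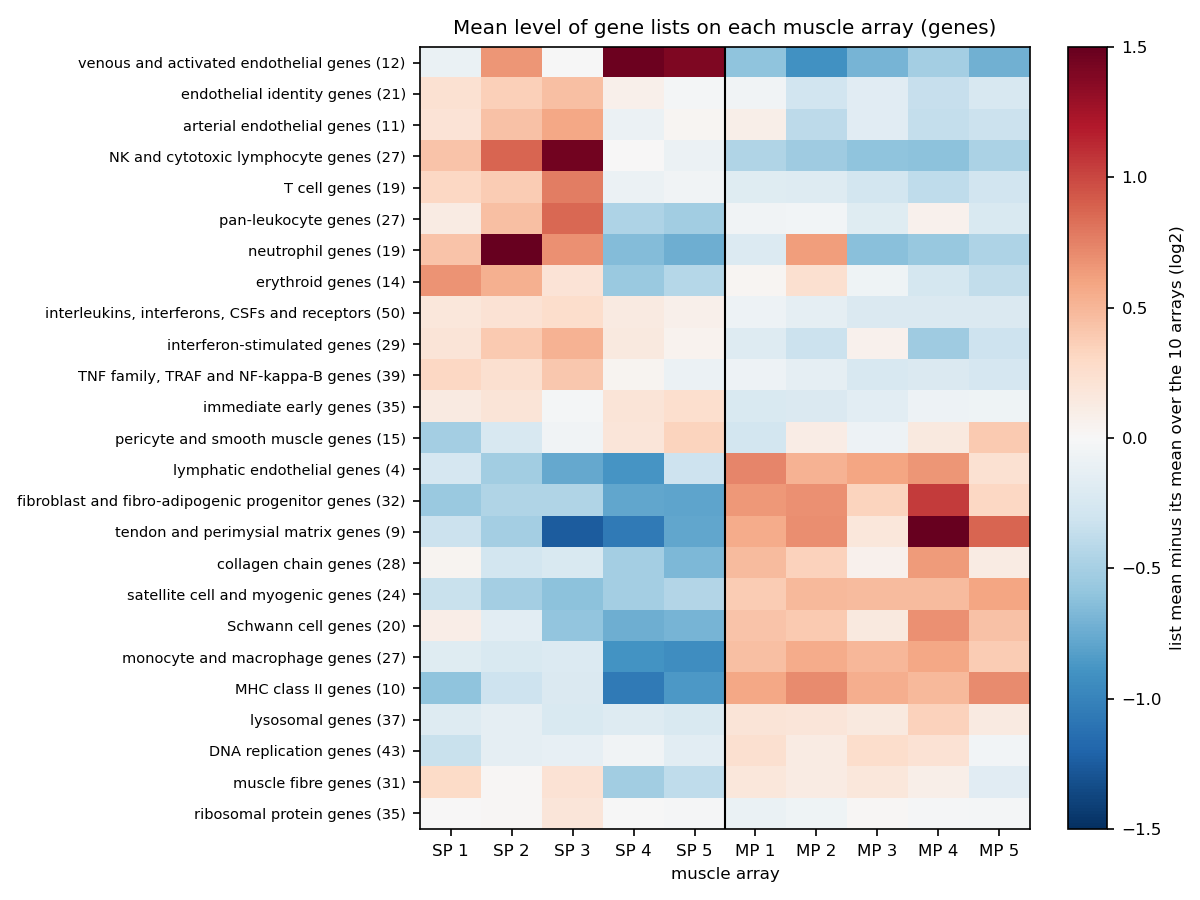
Mean log2 signal of 25 gene lists (rows, with the number of genes) on the 10 muscle arrays (columns), less the list's mean over these arrays. Colours are clipped at 1.5. Venous and activated endothelial genes are highest on SP 4 and 5. Lymphocyte, leukocyte, neutrophil and red cell genes are higher on SP 1, 2 and 3 than on SP 4 and 5. Fibroblast, tendon, satellite cell, macrophage and MHC class II genes are lower on every SP array than on every MP array.

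Most genes of a mixed list of venous and activated endothelium rose in muscle SP cells, and a smaller share of genes that mark endothelium in general did. The vein genes Nr2f2 and Ephb4 of that list were not among those that rose. Of 12 venous and activated endothelial genes, 8 rose and none fell (66.7% against 4.93% of all genes), and their median difference was 1.58. Of 21 endothelial identity genes, 3 rose and none fell (14.3% against 4.93%), with a median of 0.38. The mean of these 21 genes was 12.17 to 12.65 on the SP arrays and 11.85 to 12.15 on the MP arrays. Pecam1 (10.07 in SP and 9.77 in MP), Cdh5 (14.49 and 14.44) and Tek (12.68 and 12.10) did not pass the threshold.

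Vwf, the clotting factor that endothelial cells store, was 12.96, 14.06, 14.14, 15.56 and 15.15 on the SP arrays and 12.51, 11.90, 12.02, 12.10 and 12.13 on the MP arrays. The groups did not overlap, and SP was 4.73-fold higher (log2 2.24, SE 0.44, adjusted p 0.00155). Selp encodes P-selectin, which catches rolling leukocytes. It was 12.73, 12.74, 12.11, 13.77 and 13.91 in SP and 10.55, 10.44, 10.56, 10.49 and 10.31 in MP, a 5.99-fold rise (SE 0.39, adjusted p 9.24e-05). Lrg1, a secreted glycoprotein, rose 4.85-fold (adjusted p 0.00378). For Vwf and Selp, SP 4 and 5 were the highest arrays.

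Ackr1, the chemokine-binding receptor of venules, was at the floor on SP 1 and at 10.29, 8.92, 11.74 and 11.31 on the other SP arrays. In MP it lay between 6.71 and 8.35, so the groups overlapped through SP 1. The fitted rise was 5.01-fold (SE 0.59, adjusted p 0.0111) and 8.55-fold without SP 1, and the call was lost in a fit of the muscle arrays alone (adjusted p 0.124) and without SP 4 and 5 (adjusted p 0.133). The other members that rose were the adhesion molecules Sele (2.06) and Icam1 (1.60), the granulocyte factor Csf3 (1.56) and the interleukin 1 receptor Il1r1 (1.03), named here after their values were seen. Without SP 4 and 5 the count was 6 of 12, and without SP 1, 2 and 3 it was 8.

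Among endothelial identity genes, Ptprb rose most. This receptor phosphatase, which acts on the angiopoietin receptor Tek, was 11.95, 12.26, 13.43, 12.91 and 12.70 in SP and 11.23, 10.42, 11.26, 10.29 and 11.20 in MP. No SP array reached down to an MP array, and the difference was 3.41-fold (SE 0.24, adjusted p 2.47e-05). Eng, a co-receptor for TGF-beta and BMP ligands, rose 2.08-fold (adjusted p 0.00239). Emcn, a sialomucin of capillary and venous endothelium, rose 1.74-fold (adjusted p 0.0393), but leaving out any 1 array other than SP 1 ended the call (adjusted p 0.0534 to 0.0988), as did the GAPDH covariate (0.0573), a floor at the 10th percentile (0.0587) and either subset of SP arrays (0.119 and 0.13). The other probe sets of Emcn read 0.59 and 0.59 and did not pass. Array weights raised the count of identity genes from 3 to 5.

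Of 11 arterial genes, Vegfc and Bmx rose, a count that reached 4 with a floor at the 40th percentile and 5 when the probe sets of a gene were averaged. Vegfc, a growth factor for vessels, was 12.75 to 13.51 in SP and 11.42 to 11.74 in MP, 3.06-fold higher (adjusted p 0.000137). Bmx, a kinase of arterial endothelium and the heart's inner lining, rose 2.08-fold (adjusted p 0.00911; 0.0683 without SP 4 and 5, where the count was 1). Of 12 capillary caveola and lipid uptake genes, 1 rose and none fell.

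In a short list of lymphatic endothelial genes, most went the other way, with 3 of 4 lower and none higher. The remaining member read 0.38 and did not pass. Lyve1, the hyaluronan receptor of lymph vessels and of some macrophages, was 6.89, 7.81, 6.94, 7.37 and 8.61 in SP and 10.01, 10.13, 10.09, 10.10 and 9.36 in MP. The groups did not overlap and SP was 5.34-fold lower (SE 0.27, adjusted p 1.92e-06). Reln, a secreted guidance protein, fell 2.66-fold and Pdpn, a mucin-like glycoprotein, 1.90-fold (adjusted p 0.000725 and 0.0027).

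Of 15 pericyte and smooth muscle genes none rose and 3 fell, with a median of -0.10. Kcnj8 and Abcc9 together form an ATP-sensitive potassium channel of pericytes, and fell by 1.24 and 0.82 (log2). Vtn, an adhesive plasma protein that pericytes also make, fell by 1.00. None of the 3 passed with the GAPDH ratio as a covariate (adjusted p 0.0642 to 0.078), and without MP 3, without SP 4 or without SP 4 and 5 the count was 1. In a fit of the muscle arrays alone it was 0. The markers Rgs5 (11.11 in SP and 11.31 in MP), Pdgfrb (9.93 and 9.21) and Acta2 (14.21 and 14.20) did not pass, although a second probe set of Rgs5 fell (-1.09, adjusted p 5.39e-05). The probe set of Abcc9 may cross-hybridise. Pdgfrb passed as higher without SP 1 (adjusted p 0.00305), and without SP 1, 2 and 3 the list had 4 genes higher and 3 lower.

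Fibroblast genes fell as a group. Of 32 genes of fibroblasts and fibro-adipogenic progenitors, 20 fell and none rose (62.5% against 7.50% of all genes), with a median of -1.28. The count was 16 without SP 4 and 5 and 18 without SP 1, 2 and 3 or with the GAPDH ratio as a covariate. Its defining markers parted: Col1a1 fell, whereas Pdgfra (11.36 in SP and 11.77 in MP, adjusted p 0.45) and Dcn (14.96 and 15.40, adjusted p 0.331) did not pass.

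Lum, a small leucine-rich proteoglycan that binds collagen fibrils, was 12.73, 12.27, 12.01, 11.00 and 11.53 in SP and 14.42, 14.16, 14.21, 14.70 and 13.97 in MP. SP was 5.21-fold lower, with no overlap (SE 0.30, adjusted p 1.09e-05). Dpt, a matrix protein that binds proteoglycans, fell 6.45-fold and Serpinf1, a secreted anti-angiogenic serpin, 6.28-fold (adjusted p 1.22e-05 and 0.000158). A second probe set of Serpinf1 did not pass (-0.48). Mfap4, a microfibril-associated glycoprotein, fell 5.02-fold by a probe set that may cross-hybridise, while its other probe set read 0.31 and did not pass.

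All 9 tendon and perimysial matrix genes tested were lower in SP, 7 of them past the threshold. Fmod, a proteoglycan of tendon, was 10.17, 10.46, 9.29, 10.58 and 10.57 in SP and 13.07, 12.66, 12.05, 14.35 and 12.83 in MP, 6.86-fold lower (SE 0.30, adjusted p 1.47e-06). Kera, a related proteoglycan, fell 10.4-fold (adjusted p 6.16e-08), Chad, a cartilage matrix protein, 2.78-fold and Cilp2, another matrix protein of cartilage, 2.69-fold by a probe set that may cross-hybridise. A second probe set of Cilp2 also fell (-2.63). MP 4 was the highest array for Fmod and Kera. The count was 4 with the GAPDH ratio as a covariate, with a fit of the muscle arrays alone, with a filter at the median signal or without SP 1, 2 and 3.

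Of 28 collagen chain genes, 11 fell and 1, Col8a1 (1.00), a chain of endothelial basement membranes, rose. Col5a1 was 12.66, 12.12, 11.89, 11.76 and 11.54 in SP and 14.04, 14.19, 13.74, 14.34 and 13.82 in MP, a 4.10-fold fall without overlap (SE 0.21, adjusted p 7.9e-07). Col26a1 fell 4.51-fold, Col14a1 4.10-fold and Col6a2 3.71-fold. Col1a1, the main chain of collagen I, was 15.25, 14.55, 13.95, 13.38 and 13.13 in SP and 15.07 to 15.91 in MP, so SP 1 lay within the MP range. Its 2.67-fold fall (adjusted p 0.00847) was lost without further normalization (adjusted p 0.0745) and without SP 4 and 5 (adjusted p 0.105). A second probe set of Col1a1 also fell (-2.12).

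Elastic fibre and matrix glycoprotein genes had 9 lower and 2 higher of 24. The fibroblast, tendon, collagen and elastic fibre lists share genes, so their counts are not separate results. Col1a1, Col1a2, Col3a1, Col6a1, Col6a2 and Col6a3 count as lower in both the fibroblast and the collagen list. Lox, Mfap4, Mfap5 and Thbs2 do so in the fibroblast and elastic fibre lists. Col11a1 does so in the tendon and collagen lists and Tnc in the tendon and elastic fibre lists. Postn, a matricellular protein of fibroblasts, fell 3.57-fold (12.05 in SP and 13.89 in MP, adjusted p 1.22e-05). Matn2, a matrilin, fell 3.83-fold (-0.60 and not called by a second probe set) and Thbs2, a thrombospondin, 3.75-fold. The members that rose were Eln (1.28), which encodes elastin, and Fbln2 (0.82), which binds it, and 1 gene was higher with the GAPDH ratio as a covariate or without SP 4 and 5. Of 7 laminin chain genes, Lama5 and Lamb2, chains of vessel basement membranes, rose 2.25-fold and 2.14-fold and Lama2, the chain around muscle fibres, fell 2.83-fold. Lama2 was 10.10, 10.58, 11.12, 10.61 and 10.39 in SP and 11.68, 11.97, 12.20, 12.34 and 12.11 in MP (adjusted p 2.78e-06). Lama5 was 11.97 to 12.92 in SP and 10.87 to 11.41 in MP. The Lama5 rise (adjusted p 0.02) was lost without SP 3 (0.0622) or MP 3 (0.0533) and without SP 1, 2 and 3 (0.155), while a second probe set also rose (1.70). That of Lamb2 was lost with a floor at the 10th percentile (0.145).

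**Figure D3:**
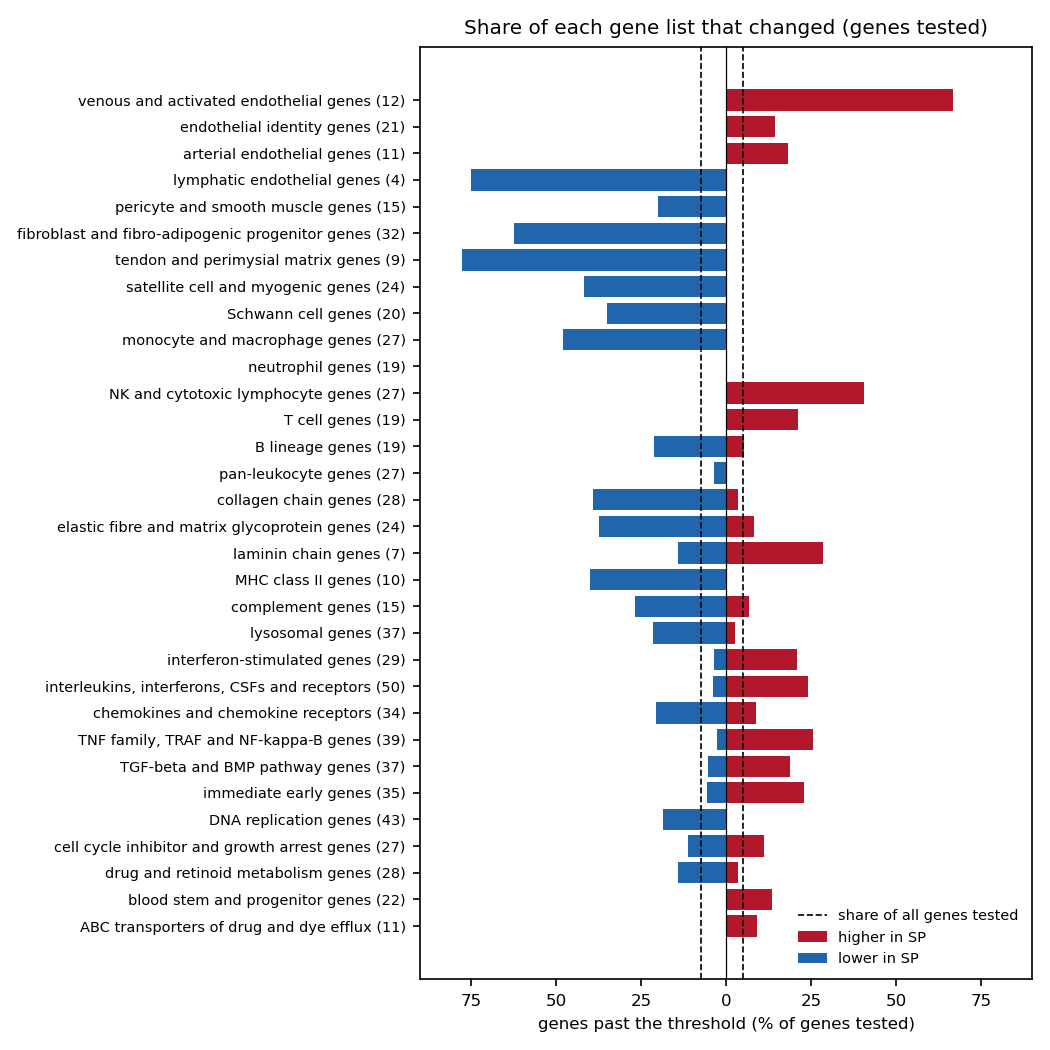
Share of the genes tested in each of 32 lists that passed the threshold (%, horizontal axis), higher in SP to the right and lower to the left, with the number of genes tested in parentheses. Dashed lines mark the shares over all 7295 genes, 4.93% higher and 7.50% lower; venous and activated endothelial genes reach 66.7% higher and fibroblast genes 62.5% lower.

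Some genes of satellite cells, the stem cells of muscle fibres, fell in SP. In a list of 24 such genes and other myogenic genes, 10 fell and none rose, although the median over the list was -0.12. Myf5, a myogenic transcription factor, was 7.77, 8.34, 7.25, 6.71 and 7.42 in SP and 9.99, 11.05, 11.50, 11.30 and 10.60 in MP, 10.5-fold lower (SE 0.26, adjusted p 8.91e-09). Fgfr4, a fibroblast growth factor receptor of myoblasts, was at the floor on 4 of 5 SP arrays and at 10.21 to 10.87 in MP, a fitted 13.4-fold fall with the floor as the level of those 4 arrays. Calcr, the calcitonin receptor of quiescent satellite cells, fell by 3.59 on the log2 scale and Chrna1, a subunit of the muscle acetylcholine receptor, fell 7.19-fold. Cdh15, the cadherin between satellite cell and fibre, was at the floor on 3 SP arrays and fell 2.67-fold (adjusted p 0.000109). The count of 10 was the same with the GAPDH ratio as a covariate and in either subset of SP arrays.

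Of 31 muscle fibre genes, none rose and 3 fell, a share of 9.68% near the 7.50% of all genes, with a median of -0.08. The 3 were the titin-binding Ankrd1 (-2.79), the calcium channel Ryr1 (-1.27) and the myosin Myh1 (-0.59), named after their values were seen. The defining marker Ckm (8.1 in SP and 7.4 in MP, with 3 MP arrays at the floor) did not pass. The list had 3 higher and 2 lower without SP 4 and 5 and 7 lower without SP 1, 2 and 3. Acta1, the skeletal actin, was 12.07, 12.39 and 12.41 on SP 1 to 3, 9.31 and 9.59 on SP 4 and 5, and 10.51 to 12.72 in MP (adjusted p 0.487). Actc1, the actin of heart and young muscle, fell 8.70-fold by a probe set that may cross-hybridise, and a second probe set also fell (-1.15).

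Schwann cell genes had 7 lower and none higher of 20. Gpm6b, a membrane proteolipid of glia, was 10.95, 10.57, 7.89, 7.75 and 8.94 in SP and 12.35, 12.19, 11.69, 13.01 and 12.74 in MP, 9.02-fold lower (SE 0.46, adjusted p 6.95e-05). Erbb3, the neuregulin receptor of Schwann cells, fell 4.25-fold and Fabp7, a lipid carrier of glial precursors, 3.95-fold. Sox2, a stem cell transcription factor, fell 6.07-fold, although SP 1 (10.41) lay within the MP range, and its probe set may cross-hybridise.

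Macrophage genes were also among those that fell. Of 27 monocyte and macrophage genes, 13 fell and none rose (48.1% against 7.50%), with a median of -0.73. Adgre1, the F4/80 antigen of macrophages, was at the floor on all 5 SP arrays and at 8.62 to 9.03 in MP, at least 4.23-fold lower (adjusted p 1.71e-07). Csf1r, the receptor for the macrophage growth factor, was 9.49, 8.51, 9.07, 8.55 and 8.27 in SP and 10.93, 10.94, 10.24, 11.20 and 10.53 in MP, a 3.98-fold fall (SE 0.24, adjusted p 8.84e-06). A second, dimmer probe set of Csf1r did not pass (0.38). Mrc1, the mannose receptor of resident macrophages, was at the floor on 4 SP arrays, and its fitted fall of 7.81-fold takes the floor as their level.

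Lyz2, the lysozyme of macrophages and neutrophils, was 9.20, 12.09 and 11.09 on SP 1 to 3, at the floor on SP 4 and 5, and 11.81 to 12.27 in MP. SP 2 lay within the MP range, and the 7.41-fold fall (adjusted p 0.0117) was 12.3-fold without SP 2 and 4.85-fold without SP 4 or without SP 5. It did not pass without SP 4 and 5 (adjusted p 0.122) or with the GAPDH covariate (0.0684), and a second probe set read -0.46 and did not pass. Ctss, a protease that prepares peptides for MHC class II, fell 7.31-fold (4.73-fold without SP 4). Cd68, a lysosomal glycoprotein, fell 1.87-fold by a probe set that may cross-hybridise (adjusted p 0.0191), a call lost without MP 1 (0.0583) or SP 4 (0.0511), without SP 4 and 5 (0.116) and with the GAPDH covariate (0.054). Without SP 4 and 5 the list had 8 lower of 27, without SP 1, 2 and 3 it had 15, and with the GAPDH covariate it had 10 lower and 1 higher. Neutrophil genes had none called of 19 and a median of 0.11, with 6 higher and none lower once SP 4 and 5 were left out. S100a8, a neutrophil calcium-binding protein, was 10.03, 12.79, 11.31, 8.53 and 7.82 in SP and 8.60 to 10.59 in MP.

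MHC class II molecules present peptides to helper T cells and are made by macrophages, dendritic cells and B cells. Of 10 of their genes tested, 4 fell and none rose, with a median of -0.92. H2-Aa, the alpha chain of I-A, was at the floor on SP 1, 4 and 5, at 8.48 on SP 2 and 8.34 on SP 3, and at 11.14, 11.51, 11.30, 11.19 and 11.71 in MP, 15.8-fold lower (SE 0.59, adjusted p 7.82e-05). H2-Eb1, the beta chain of I-E, was 9.50, 9.84, 9.39, 7.61 and 8.75 in SP and 11.07, 11.60, 11.13, 11.13 and 11.05 in MP, 4.51-fold lower (SE 0.30, adjusted p 3.34e-05). H2-Ab1, the I-A beta chain, fell 5.44-fold. H2-DMa, which loads peptides, fell 2.25-fold with overlapping groups, and its call was lost with the GAPDH ratio as a covariate (adjusted p 0.0577), and its second probe set did not pass (-0.56).

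The promoters of both non-overlapping members that the RefSeq table of GRCm38.p6 holds are shown because the members fell together. Each window spans the start site and is written 5′ to 3′ on the gene's strand, and match positions count from that site. Capitals mark CCAAT, the box that NF-Y binds in MHC class II promoters, or ATTGG, its reverse complement. H2-Aa lies on the minus strand (chr17:34287774-34288073) and H2-Eb1 on the plus strand (chr17:34305617-34305916).
H2-Aa: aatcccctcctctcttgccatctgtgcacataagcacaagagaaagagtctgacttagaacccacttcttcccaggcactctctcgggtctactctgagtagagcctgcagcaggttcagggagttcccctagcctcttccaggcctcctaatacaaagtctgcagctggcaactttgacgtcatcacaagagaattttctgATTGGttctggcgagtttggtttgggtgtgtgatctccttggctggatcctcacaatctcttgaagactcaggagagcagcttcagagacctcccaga
H2-Eb1: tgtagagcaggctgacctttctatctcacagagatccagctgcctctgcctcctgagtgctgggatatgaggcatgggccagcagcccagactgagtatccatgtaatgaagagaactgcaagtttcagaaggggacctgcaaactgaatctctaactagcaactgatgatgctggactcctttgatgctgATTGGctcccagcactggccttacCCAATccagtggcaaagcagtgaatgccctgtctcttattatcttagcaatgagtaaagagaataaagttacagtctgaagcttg
H2-Aa has 1 match, on the reverse strand, with its first printed base at -48. H2-Eb1 has a reverse match at -59 and a forward match at -35. All 7 of the MHC class II genes tested that have a promoter in the table hold a match, against 42.5% of 5840 genes tested with a promoter and 37.4% of the 32851 promoters searched. A match is a description of the letters, not of binding.

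Complement genes had 4 lower and 1 higher of 15. C1qa and C1qc, chains of the first complement component made by macrophages, fell 5.71-fold and 3.54-fold. C1qb was among the largest falls by its dimmer probe set, 9.72-fold. The brighter probe set of C1qb, which stands for the gene in the macrophage list, read -0.73 and did not pass. C3ar1, the C3a receptor, fell 2.22-fold. Clu, a secreted chaperone that restrains the membrane attack complex, rose 2.41-fold (adjusted p 0.000726). Of 37 lysosomal genes 8 fell and 1, Scarb2 (0.67), rose. Cd63, a tetraspanin of late endosomes, fell 4.63-fold and Ctsk, a collagen-degrading protease, 4.12-fold. The count was 5 with the GAPDH ratio as a covariate or without SP 1, 2 and 3.

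Genes of cytotoxic lymphocytes were among those that rose. Of 27 NK and cytotoxic lymphocyte genes, 11 rose and none fell (40.7% against 4.93%), with a median of 0.83. Klrd1, the CD94 receptor of NK cells, was 8.22, 9.99, 10.79, 8.71 and 8.20 in SP and at the floor on all MP arrays, at least 5.55-fold higher (adjusted p 0.000199). Gzmb, a granzyme that kills target cells, was 9.88, 10.73, 11.33, 8.83 and 8.50 in SP and 6.71 to 7.49 in MP, 7.31-fold higher (SE 0.42, adjusted p 7.67e-05). Gzma, another granzyme, rose 7.30-fold by a probe set that may cross-hybridise and Prf1, which forms the pore for granzymes, 2.25-fold (adjusted p 0.00467; 0.105 with the GAPDH ratio as a covariate and 0.187 without SP 1, 2 and 3). Ccl5, a chemokine of memory T and NK cells, was 13.81, 14.55, 15.43, 10.96 and 11.04 in SP and 7.30 to 8.30 in MP, a 37.8-fold rise (adjusted p 5.74e-06).

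The first 3 SP arrays were higher than the other 2 for Gzmb and Ccl5. The list had 16 genes higher without SP 4 and 5, 6 higher and 1 lower without SP 1, 2 and 3, and 6 higher with the GAPDH ratio as a covariate or a floor at the 40th percentile. Ptprc, the CD45 antigen of all leukocytes, was 10.20, 10.70, 11.66, 7.58 and 8.59 in SP and 8.65 to 9.19 in MP (adjusted p 0.268). It passed as higher without SP 4 (adjusted p 0.0238) and without SP 4 and 5 (0.000344). Of 27 pan-leukocyte genes, none was higher and 1 lower in all arrays, 7 and none without SP 4 and 5, and none and 6 without SP 1, 2 and 3. The part of the leukocyte share in the cytotoxic gene results was not tested.

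Of 19 T cell genes, 4 rose and none fell, but the CD3 chain genes Cd3e and Cd3g, which define T cells, did not exceed the floor on any muscle array. Il7r, the interleukin 7 receptor, was 9.16, 9.38, 10.49, 8.30 and 8.07 in SP and 6.71 to 7.91 in MP, 3.39-fold higher without overlap (SE 0.39, adjusted p 0.0043). Cd28, a co-stimulator, rose 2.67-fold, Gata3, a transcription factor of lymphoid and other cells, 2.18-fold and Cd27, a TNF receptor family member, 1.92-fold. A second probe set of Cd27 read 0.28 and did not pass. Cd4 did not pass (8.65 in SP and 8.31 in MP). Without SP 1, 2 and 3, 1 T cell gene passed (Il7r 0.243, Cd28 0.125 and Cd27 0.443 did not), and without SP 4 and 5 there were 7. The GAPDH covariate or a floor at the 40th percentile gave 2, and neither Il7r (0.0797 and 0.0528) nor Cd27 (0.107 and 0.0885) passed in those fits.

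Of 19 B lineage genes, 4 fell and Ebf1 (0.96), a transcription factor also used in mesenchymal cells, rose. Those that fell were Blnk (-2.63), Pou2af1 (-1.35), Cd79b (-1.11) and Ms4a1 (-0.90), named after their values were seen, whereas Cd79a, a chain of the B cell receptor complex, was 7.40 in SP and 7.05 in MP and did not pass. With the GAPDH covariate 2 B lineage genes were lower. Platelet genes had 2 higher and 2 lower of 12 (1 higher with the GAPDH covariate or in either subset of SP arrays, and 1 lower without SP 4 and 5), and Pf4, a chemokine of platelets, lay at 6.71 to 7.18 on all 10 arrays. Of 14 erythroid genes 2 rose, the transferrin receptor Tfrc (0.87) and the carbonic anhydrase Car2 (0.94), and without SP 1, 2 and 3 none was higher and 4 were lower, and with the GAPDH covariate 1 was higher and 1 lower. Of 14 adipocyte genes 1 rose and 1 fell, and Adipoq, the fat cell hormone adiponectin, was 7.76 in SP and 7.53 in MP (adjusted p 0.429).

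Of 50 interleukin, interferon and colony-stimulating factor genes, 12 rose and 2 fell, with a median of 0.21. Ifng was 8.88, 10.11, 9.89, 8.40 and 8.75 in SP and at the floor on all MP arrays, at least 5.63-fold higher (adjusted p 9.05e-05). Il18r1, the interleukin 18 receptor of NK and T cells, was 7.81, 9.22, 9.18, 8.52 and 8.49 in SP and at the floor on 4 MP arrays, with 7.21 on MP 5. It rose 3.56-fold (SE 0.23, adjusted p 1.22e-05). The members that fell were Csf1r and Il17ra (-0.96), the interleukin 17 receptor. The count of 12 was 8 without SP 4 and 5, and that of 2 was 1 without MP 1, MP 4, SP 4 or SP 5, without SP 4 and 5 or in a fit of the muscle arrays alone. Without SP 1, 2 and 3 it was 4, beside 12 higher, and the median was 0.01. With array weights it was also 4.

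Of 34 chemokine genes, 3 rose and 7 fell. Ccl11, which draws eosinophils, was 7.66, 7.50 and 7.65 on SP 1 to 3, at the floor on SP 4 and 5, and 8.48, 9.30, 9.85, 10.03 and 9.56 in MP, 4.59-fold lower (SE 0.25, adjusted p 2.22e-06). Ccl12, a monocyte chemokine, was at the floor on all SP arrays and at 7.90 to 8.89 in MP, at least 3.78-fold lower. Ccl5 and Ackr1, above, and Cx3cl1 (0.93), a membrane-bound chemokine of endothelium, were the members that rose. The count of lower genes was 3 with the GAPDH ratio as a covariate and 4 without MP 3 or without SP 4 and 5.

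Interferon-stimulated genes had 6 higher and 1 lower of 29, with a median of 0.50. Mx2, an antiviral GTPase, was 10.98, 10.62, 11.42, 11.14 and 10.70 in SP and 9.37, 8.83, 9.97, 9.20 and 9.46 in MP, 3.04-fold higher without overlap (SE 0.24, adjusted p 7.93e-05). Ifi47, an immunity-related GTPase, rose 2.20-fold, Iigp1 2.43-fold and Igtp 1.81-fold, GTPases of the same family. A second probe set of Iigp1 did not pass (0.67), and SP 1 (12.83) lay within the MP range of the first. Iigp1 did not pass without SP 4 and 5 (adjusted p 0.0601), nor Igtp without SP 1, 2 and 3 (0.0713), a setting in which 3 genes of the list passed. Cxcl9, a chemokine induced by interferon gamma, fell by 0.76 (log2).

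The promoters of Igtp, which rose, and of Cxcl9, which fell, are shown because members of the list moved in both directions. Capitals mark GAAANNGAA, the core of the interferon-stimulated response element, where N is any base, searched on both strands. Igtp lies on the plus strand (chr11:58199306-58199605) and Cxcl9 on the minus strand (chr5:92328030-92328329), in GRCm38.p6 as given by RefSeq.
Igtp: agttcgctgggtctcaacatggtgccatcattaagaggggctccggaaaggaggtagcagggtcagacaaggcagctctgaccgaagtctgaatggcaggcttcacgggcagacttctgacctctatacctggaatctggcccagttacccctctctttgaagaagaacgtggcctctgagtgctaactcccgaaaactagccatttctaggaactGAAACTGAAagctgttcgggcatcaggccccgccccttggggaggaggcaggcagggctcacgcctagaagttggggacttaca
Cxcl9: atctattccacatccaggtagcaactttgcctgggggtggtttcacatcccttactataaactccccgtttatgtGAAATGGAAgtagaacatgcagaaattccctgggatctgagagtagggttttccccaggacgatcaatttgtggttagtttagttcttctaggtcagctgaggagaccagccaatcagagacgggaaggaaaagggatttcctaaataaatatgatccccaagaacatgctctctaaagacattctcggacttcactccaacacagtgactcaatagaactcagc
Each holds 1 forward match, with its first base at -34 in Igtp and at -175 in Cxcl9. The window of Ifi47 holds none. Of the 24 interferon-stimulated genes tested that have a promoter in the table, 16 hold a match, against 8.70% of the genes tested with a promoter and 8.56% of all promoters searched. Of the 5 called members with a promoter, 3 hold one.

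Of 39 TNF family, TRAF and NF-kappa-B genes, 10 rose and 1 fell. Tnfrsf1b, a TNF receptor of leukocytes and endothelium, was 10.64 to 11.52 in SP and 9.65 to 10.24 in MP, 2.29-fold higher (adjusted p 0.000734). Bcl3, a nuclear co-factor of NF-kappa-B, rose 2.32-fold and Fasl, the death ligand of cytotoxic cells, rose at least 2.80-fold from the floor of all MP arrays (adjusted p 0.00567 and 0.00583). Tnf itself fell 2.83-fold (adjusted p 0.0374), with SP 2 and SP 3 (10.45 and 10.40) within the MP range of 10.28 to 11.04 and SP 5 at the floor. The Tnf fall was 1.88-fold and not called without SP 5 (adjusted p 0.0727), and leaving out any of 8 arrays ended its call (0.0517 to 0.0857). The count of 10 was 4 with the GAPDH covariate and 5 with the muscle arrays alone or without SP 1, 2 and 3, where Tnfrsf1b (0.0576), Bcl3 (0.203) and Fasl (0.439) did not pass in the last of these. With the GAPDH covariate Bcl3 (0.101) and Fasl (0.06) did not pass either.

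TGF-beta and BMP pathway genes had 7 higher and 2 lower of 37. The members that rose included feedback inhibitors and direct targets. Smad7, an inhibitor of the pathway, was 11.15, 11.86, 12.31, 11.75 and 11.73 in SP and 10.73, 9.79, 10.54, 11.04 and 10.39 in MP, 2.40-fold higher without overlap (SE 0.35, adjusted p 0.0202). Id1, a target of BMP signalling, was 13.69, 14.01, 14.08, 12.96 and 13.18 in SP and 12.33 to 12.68 in MP, 2.10-fold higher (adjusted p 0.0352). Smad6 (0.90), Id3 (0.91) and Bmp4 (0.88) also rose, named after their values were seen. Bmp6, a ligand, fell 2.95-fold (9.90 in SP and 11.46 in MP, adjusted p 0.000155) and Id4, another Id factor, 2.11-fold with overlapping groups. With 1 array left out, the lower count was 4 without SP 5 and 1 without MP 1, MP 2, MP 5, SP 2 or SP 3. It was also 1 with a floor at the 10th percentile and 4 with a replicate block. The list had 4 higher without MP 2, MP 4 or SP 3, 4 higher and 4 lower without SP 4 and 5, and 3 higher without SP 1, 2 and 3. Smad7 was lost without MP 2 (0.0667) or SP 3 (0.06). Id1 was lost in 8 and Id4 in 6 of the 10 fits that leave out 1 array (adjusted p up to 0.0933 and 0.114), and Id1 also with the GAPDH covariate (0.122).

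Immediate early genes had 8 higher and 2 lower of 35. Nr4a2, an orphan nuclear receptor, rose 2.91-fold (adjusted p 0.00124) and Junb, an AP-1 subunit, 2.60-fold (adjusted p 0.00354), each with a second probe set that also rose. Gadd45b, a stress-response protein, rose 2.34-fold and Ptgs2, the inducible cyclooxygenase, fell 2.44-fold (adjusted p 0.0405). The count of higher genes was 5 without MP 1, MP 3, MP 5 or SP 5, 3 without MP 2, and 4 in either subset of SP arrays, and that of lower genes fell to 1 or 0 on leaving out any array but MP 2, MP 5 or SP 5. Ptgs2 was lost in 7 of the 10 fits that leave out 1 array (adjusted p up to 0.134) and with the GAPDH covariate (0.29), where 1 gene was lower, and Junb without SP 1, 2 and 3 (0.0978).

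Of 27 cell cycle inhibitor and growth arrest genes, 3 rose and 3 fell. Cdkn1a, the p21 inhibitor of cyclin-dependent kinases, was 14.03, 13.75, 13.01, 12.83 and 13.61 in SP and 11.88, 11.50, 12.50, 11.17 and 11.50 in MP, 3.33-fold higher without overlap (SE 0.27, adjusted p 0.00014), and its second probe set also rose (1.30). Gas1, a membrane protein of growth-arrested fibroblasts, was 11.29 to 11.94 in SP and 12.83 to 14.34 in MP, 4.12-fold lower, and Gas2, named for the same state, fell 3.23-fold by a probe set that may cross-hybridise. Tob1, an antiproliferative protein, rose 2.22-fold, a call lost without MP 2 (adjusted p 0.0584). The count of higher genes was 1 without MP 2, with median scaling or in either subset of SP arrays, and 5 in a fit of the muscle arrays alone.

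Of 43 DNA replication genes, 8 fell and none rose. Uhrf1, which recruits the maintenance DNA methyltransferase, fell 3.07-fold (adjusted p 0.00293), Pola1, a subunit of polymerase alpha, 2.38-fold and Mcm5, a subunit of the replicative helicase, 2.04-fold. Pold2, a polymerase delta subunit, fell 2.92-fold with overlapping groups. The count was 5 with the GAPDH covariate and 3 in a fit of the muscle arrays alone. A second probe set of Mcm5 read -0.01. Leaving out 1 array ended the calls of Pold2 (SP 5, 0.0596), Pola1 (SP 3, 0.0525) and Mcm5 (MP 1, 0.0518). Mcm5 was also lost with the GAPDH covariate (0.148).

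Of 11 ABC transporters of drugs and dyes, Abcg2 was the only one past the threshold. It was 14.13, 14.07, 13.96, 14.71 and 15.00 in SP and 13.47, 13.44, 13.60, 13.38 and 13.74 in MP, so every SP array lay above every MP array. The difference was 1.80-fold (SE 0.25, adjusted p 0.028). The call was lost without MP 1 (0.0532), MP 2 (0.0588), MP 4 (0.0657), SP 4 (0.0708) or SP 5 (0.0798), with the GAPDH covariate (0.106), with median scaling (0.0571) and without SP 4 and 5 (0.218). Abcb1a (12.45 in SP and 11.81 in MP) and Abcb1b (10.00 and 10.40) did not pass. Of 22 blood stem and progenitor genes, Abcg2, Hoxb4 (2.89-fold) and Mecom (2.69-fold), transcription factors of blood stem cells and of endothelium, rose and none fell. The other probe sets of Mecom read 0.06 and -0.09. The median of that list was -0.06, and its count of 3 was 5 with array weights and 1 with a filter at the median signal.

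Of 28 drug and retinoid metabolism genes, 4 fell and 1 rose. Aldh1a1, which makes retinoic acid and is used as a stem cell marker, was 10.15, 10.65, 10.42, 10.00 and 10.10 in SP and 11.71, 12.26, 12.37, 12.66 and 12.68 in MP, 4.19-fold lower without overlap (SE 0.30, adjusted p 7.06e-05). A second probe set of Aldh1a1 did not pass (0.08). Adh1, an alcohol and retinol dehydrogenase, fell 3.37-fold and Rbp4, the retinol carrier, 2.57-fold. Cyp1b1, a cytochrome that also acts on retinoids, rose 1.65-fold (adjusted p 0.000941; 0.166 with a floor at the 10th percentile).

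**Figure D4:**
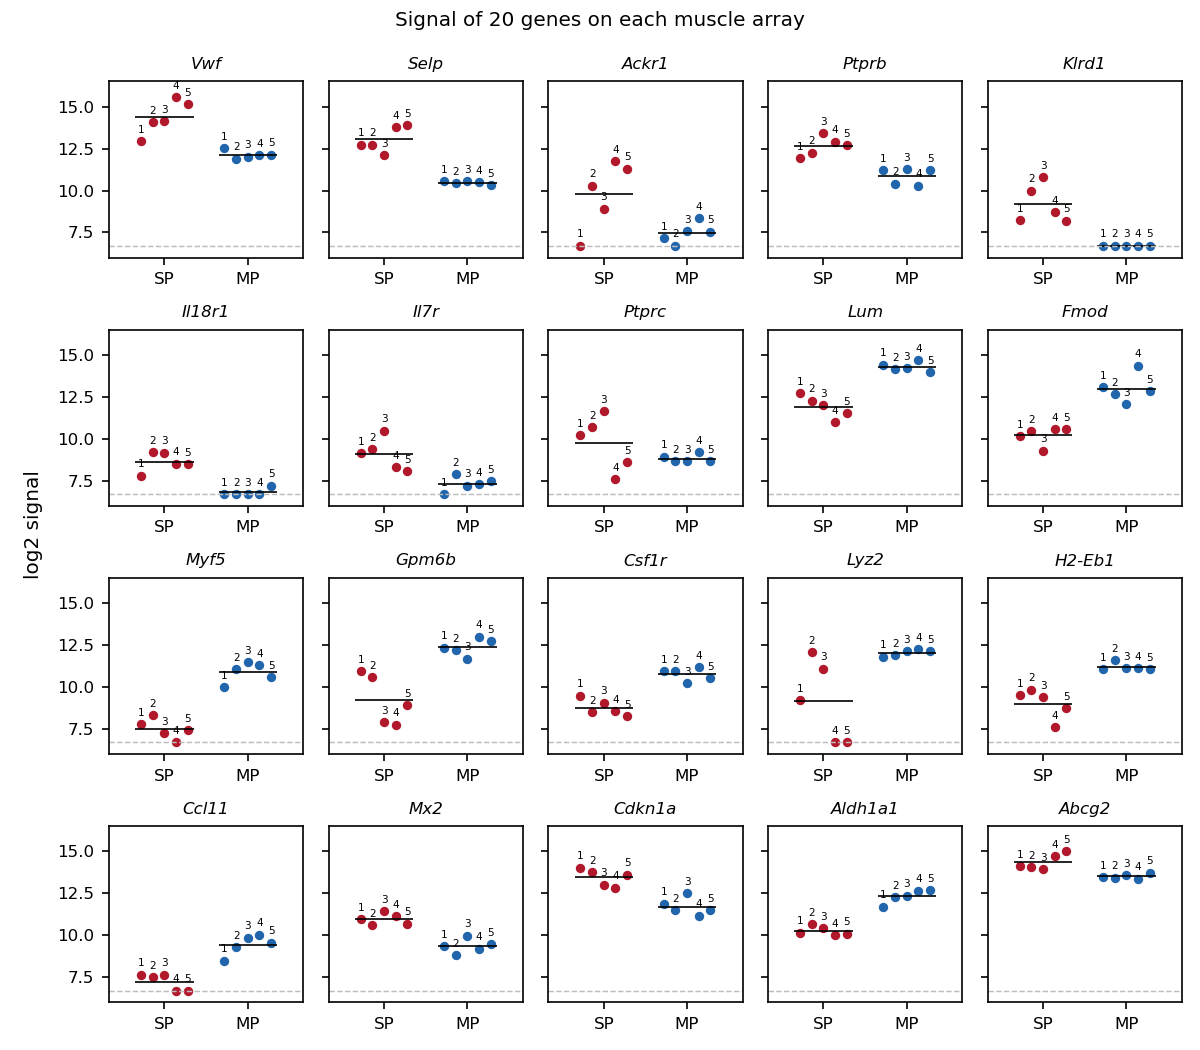
Log2 signal of 20 genes on each of the 5 muscle SP (red) and 5 muscle MP (blue) arrays, numbered by replicate; bars are group means and the dashed line is the floor of 6.71. Vwf, Selp and Abcg2 are highest on SP 4 and 5 and Klrd1, Il7r and Ptprc on SP 3, while Lyz2 is at the floor on SP 4 and 5 only.

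Some of the largest changes belonged to none of these groups. Hdc, which makes histamine, was 10.72 to 11.30 in SP and 8.26 to 9.17 in MP, 5.13-fold higher (adjusted p 6.64e-08). Cpa3, a protease of mast cells, which also make histamine, was 8.27 in SP and 8.11 in MP (adjusted p 0.915). Gjb2, a gap junction connexin, rose 4.39-fold and Ptk2b, a calcium-activated kinase, 4.11-fold (adjusted p 5.39e-05 and 1.43e-06). Ywhaq, a 14-3-3 protein, rose 4.34-fold by 1 probe set, while its other 2 read -0.12 and -0.05. C1qtnf3, a secreted relative of adiponectin, was 9.31, 9.09, 8.48, 7.28 and 8.81 in SP and 12.30, 12.80, 13.04, 13.22 and 12.18 in MP, 17.3-fold lower (SE 0.28, adjusted p 1.36e-09). Adcy2, an adenylate cyclase, fell 12.1-fold, Tmem45a 8.32-fold and Ms4a4d 7.99-fold. Of 32 named and called genes with a further probe set, 15 had one that passed in the same direction and none had one that passed in the other.

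The SP minus MP change in muscle was set against that in bone marrow in the same fit. Over all probe sets, 1912 of 10310 (18.5%) differed between the tissues. Of the 1211 probe sets called in muscle, 518 (42.8%) did, 180 of those higher and 338 of those lower in muscle SP. In marrow, 402 of the 1211 passed in the same direction and 114 in the opposite one. Vwf rose in both tissues (2.24 in muscle and 3.40 in marrow), as did Ccl5 (5.24 and 4.01), Klrd1 (2.47 and 2.60) and Vegfc (1.61 and 2.16), and H2-Aa (-3.98 and -2.90), H2-Ab1 (-2.44 and -2.55), Lyve1 (-2.42 and -2.59) and Cd63 (-2.21 and -2.13) fell in both. For these 8 genes the difference between tissues did not pass the threshold.

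Other genes moved in opposite directions. Selp changed by 2.58 in muscle and -2.34 in marrow (adjusted p of the difference 1.65e-06), and Lrg1 by 2.28 and -3.02 (1.65e-05), Hdc by 2.36 and -2.03 (1.72e-09), Bmx by 1.06 and -3.40 (3.2e-08) and Lifr, the receptor for leukaemia inhibitory factor, by 1.32 and -1.31 (0.000117). Postn changed by -1.83 in muscle and 1.41 in marrow (4.45e-07). Abcg2 rose more in marrow (2.16) than in muscle (0.85, adjusted p of the difference 0.0104). Myf5, Fgfr4, Calcr, Fmod, Dpt, Tmem45a and C1qtnf3 were at the floor in both marrow populations, so for them the difference between tissues is the muscle change itself.

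**Figure D5:**
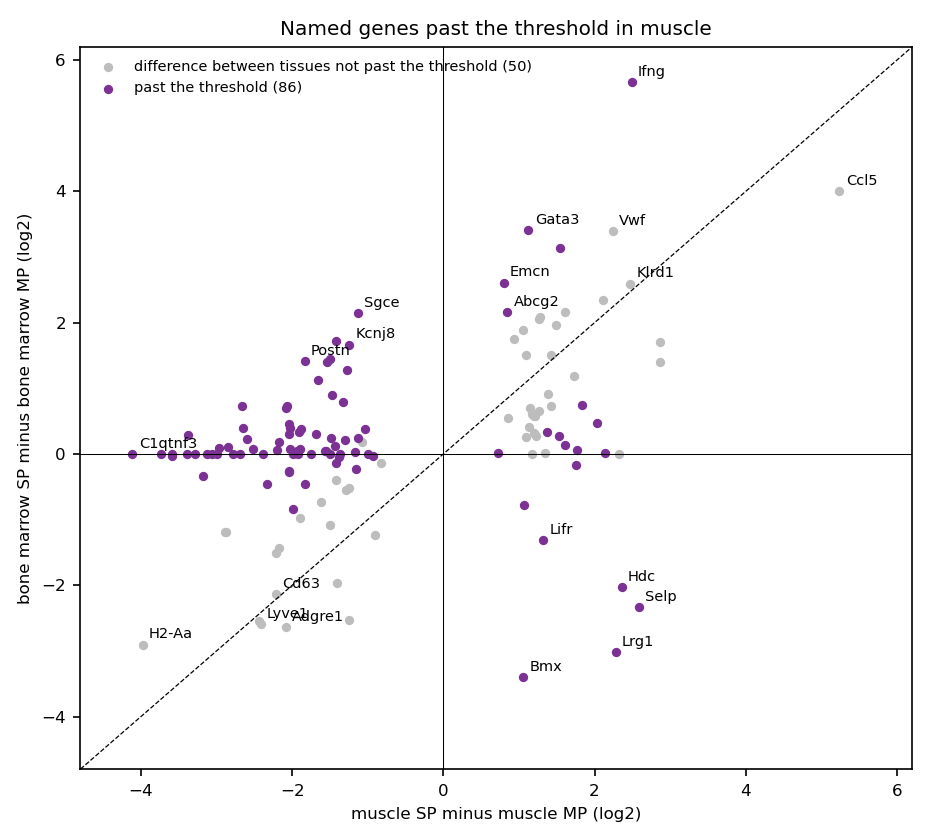
SP minus MP change in bone marrow (log2, vertical axis) against that in muscle (log2, horizontal axis) for the 136 named genes that passed the threshold in muscle. Purple points (86) differ between tissues at an adjusted p under 0.05 and grey points (50) do not; the dashed line marks equal changes, and Selp, Lrg1, Hdc and Bmx lie below 0 in marrow and above 0 in muscle.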

How the data were processed

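Total RNA of 20 samples was measured on oligonucleotide arrays of 12488 probe sets. The values are signal intensities on a linear scale that the authors deposited, with a 2%-trimmed mean of about 1501 on every array. The summary software is not given in the sources used here, and the deposited intensities hold no detection calls.

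The 66 control probe sets were left out of the 12422 tested for. Signals were quantile normalized over the 20 arrays, raised to the 25th percentile (105), taken to log2 and kept where above it on at least 5 arrays. limma 3.58.1 (R 4.3.3) fitted the 4 groups together (residual df 16, prior df 5.75), with Benjamini-Hochberg adjustment over 10310 probe sets and a threshold of 0.05. The main comparison was muscle SP minus MP, and its difference from marrow SP minus MP was an interaction contrast. The fit was tested on simulated data. Figures were drawn with matplotlib 3.10.9 (Python 3.11.15).

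Of the probe sets, 10833 carried 1 gene symbol, 396 several and 1193 none, and 10817 matched RefSeq genes of GRCm38.p6. Where all arrays of a group lie at the floor, a fold is given as "at least", with the floor as that group's level. Probe sets whose ID suffix marks sequence shared with other transcripts are said to cross-hybridise, which holds also for Cd27, Gadd45b, Junb, Pold2, Ahcy and Alas2. The promoter search left out 1 chromosome.

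Named genes are, among probe sets whose groups do not overlap, the 12 that rose most and the 12 that fell most, up to 4 called members of each list with the largest change, the defining markers of cell types, and members that moved against their group. Members and lists were chosen with earlier results of these data known. The alternatives were other floors, filters, normalizations and fits, a replicate block, a GAPDH ratio covariate, and each muscle array left out. Leaving out SP 4 and 5 together, or SP 1, 2 and 3 together, was chosen after seeing the data.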

Additional observations from a re-analysis of the deposited data

Results flagged for a closer look

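In 24 groups of 5 muscle arrays, 1 array of a named gene stood apart, its gap to the nearest being over 0.71 of the range. The search covered the 136 named genes past the threshold and the 24 not past it. Chance gives such a gap in about 1 group in 20, for values without a floor. Where all other arrays lie at the floor, any value above it is flagged, as for Fgfr4 and Mrc1 in SP and Gzma and Il18r1 in MP. Within SP, array 3 was highest for C1qa (8.27), C1qb (7.61) and Gata3 (10.00) and lowest for Cyp1b1 (8.80). SP 2 was highest for Cdh15 (6.99), En1 (7.59), Fabp7 (6.99) and Fgfr4 (7.12), where other SP arrays lay at the floor. SP 1 was highest for Mrc1 (6.80), Pdpn (7.25) and Pf4 (6.77) and lowest for Iigp1 (12.83) and Matn2 (8.27), and SP 5 was lowest for Postn (11.47). Within MP, array 1 was highest for Gzma (6.83) and lowest for Ccl12 (7.90), and array 2 was highest for H2-Eb1 (11.60) and S100a8 (10.59). MP 3 was lowest for Chad (9.26) and Ptk2b (8.37), and MP 5 was highest for Il18r1 (7.21) and Nr4a2 (10.17) and lowest for Lyve1 (9.36) and Pola1 (8.73).

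Of the 136 named genes past the threshold in muscle, 86 had an SP minus MP change that differed between muscle and bone marrow by the interaction contrast at an adjusted p under 0.05. The values below are the muscle change less the marrow change (log2). For genes at the floor in both marrow populations, such as Actc1, Adh1, C1qb, Ccl12 and Fabp7, this is the muscle change itself. Genes higher in muscle SP and lower in marrow SP, past the threshold in both, were Bmx (4.45), Hdc (4.39), Lifr (2.63), Lrg1 (5.30) and Selp (4.92). Genes higher in SP cells of both tissues were Abcg2 (-1.31), Emcn (-1.81), Gata3 (-2.29), Ifng (-3.17), Il18r1 (1.09) and Nr4a2 (-1.60). Genes higher in muscle SP without a call in marrow were Cyp1b1 (0.70), Gjb2 (2.12), Hoxb4 (1.25), Id1 (1.85), Il7r (1.93), Mx2 (1.47), Osmr (1.03), Ptk2b (1.56) and Ptprb (1.72). Genes lower in muscle SP and higher in marrow SP were Ahcy (-3.14), Chad (-2.38), Kcnj8 (-2.91), Nfix (-2.55), Peg3 (-2.95), Pold2 (-2.94), Postn (-3.25), Psat1 (-3.39), Sgce (-3.28) and Six2 (-2.78). A gene lower in SP cells of both tissues was Csf1r (-1.15). Genes lower in muscle SP without a call in marrow were Actc1 (-3.12), Adcy2 (-3.56), Adh1 (-1.75), Aldh1a1 (-2.79), Bcat1 (-2.34), Bmp6 (-1.61), C1qa (-2.59), C1qb (-3.28), C1qc (-1.37), C1qtnf3 (-4.11), C3ar1 (-0.93), Calcr (-3.59), Ccl11 (-2.25) and Ccl12 (-1.92). Also in this set were Cdh15 (-1.28), Chrna1 (-2.96), Cilp2 (-1.55), Col14a1 (-1.78), Col26a1 (-2.35), Col5a1 (-2.12), Ctsk (-1.77), Dpt (-2.69), En1 (-1.33), Erbb3 (-2.79), Fabp7 (-1.98), Fgfr4 (-3.74), Fmod (-2.78) and Gas1 (-2.50). Further ones were Gas2 (-1.99), Gpm6b (-2.84), H2-DMa (-1.20), Kera (-3.67), Lama2 (-1.50), Lum (-2.37), Matn2 (-1.98), Mcm5 (-1.41), Meg3 (-2.27), Mest (-1.97), Mfap4 (-1.87), Mrc1 (-3.06), Ms4a4d (-3.00) and Mthfd2 (-1.60). The last of these were Myf5 (-3.39), Pdpn (-0.89), Plagl1 (-1.72), Prrx2 (-1.51), Rbp4 (-1.36), Serpinf1 (-3.05), Shmt1 (-1.38), Sox2 (-2.83), Thbs2 (-2.23), Tmem45a (-3.06), Twist1 (-2.12), Vtn (-1.0) and Zic1 (-2.42).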

How the results depend on the processing

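The 526 probe sets higher in muscle SP cells ranged from 360 to 562 with 1 array left out and from 409 to 777 under the other settings, the 685 lower ones from 551 to 704 and from 501 to 869, and the 518 that differ between tissues from 390 to 565 and from 384 to 704. No count moved by more than 1.5 times. Replicate numbers did not pair the arrays (same-number correlations 0.069 to 0.207), and the fit with a replicate block gave 487 higher and 646 lower and ended the call of 1 named gene, Ptgs2 (adjusted p 0.0589). Of 136 named genes past the threshold, 84 kept their call in all 25 settings and 11 more in the 23 or 24 settings in which they were tested, 18 lost it with the GAPDH covariate, 21 without SP 4 and 5 and 21 without SP 1, 2 and 3. Calls lost in these subsets that were not given above with their gene were, without SP 4 and 5, those of Kcnj8 (adjusted p 0.238), Abcc9 (0.15), Smad7 (0.0575), Id4 (0.0868), Tnf (0.254), Ptgs2 (0.068), Pold2 (0.0548), Mcm5 (0.0643), Tob1 (0.0673), Lifr (0.0641), Il6 (0.0623) and Il6st (0.217). Without SP 1, 2 and 3 they were those of Smad7 (0.12), Id4 (0.128), Id1 (0.518), Ptgs2 (0.27), the proton pump subunit gene Atp6ap1 (0.0714), Pola1 (0.102), Tob1 (0.0706), Sgce (0.147), Il6ra (0.109) and Twist1 (0.166). A fit of the muscle arrays alone ended 14 calls, a floor at the 10th percentile 10 and one at the 40th 6. Hba-a1, not past the threshold with all arrays (0.51), was higher without SP 4 and 5 (1.88, adjusted p 0.00498) and lower without SP 1, 2 and 3 (-1.54, adjusted p 0.044), the latter the only reversal among the named genes. The share of calls that were higher was 43.4%, 46.4% without further normalization and 36.9% with median scaling. With no detection calls, signal near the floor limits genes such as Cd3e to a bound.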

Other observations

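Of 9 genes of the gp130 cytokine system, a list chosen after the values were seen, 5 rose and none fell, against 4.93% of all genes that rose. All 5 are also among the 12 that rose in the interleukin, interferon and colony-stimulating factor list above, so they are not a separate result. Osmr, the oncostatin M receptor, was 12.42 to 13.22 in SP and 11.25 to 11.79 in MP, 2.58-fold higher (limma adjusted p 1.84e-05). Lifr, the leukaemia inhibitory factor receptor, rose 2.50-fold, Il6ra, the interleukin 6 receptor, 2.54-fold and the ligand Il6 2.30-fold. Il6st, the shared gp130 chain, rose 2.13-fold (adjusted p 0.0199), a call lost without MP 2 (0.0571), MP 3 (0.0547), SP 4 (0.0647) or SP 5 (0.0608). A second probe set of Il6st read 0.35 and did not pass. Without SP 4 and 5 the count of the list was 2, and in a fit of the muscle arrays alone 3.

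Lists of imprinted genes and of serine and one-carbon metabolism were also chosen after the values were seen. Of 20 imprinted genes 6 fell and none rose, with a median of -0.40. The largest fall of the 6 was that of Calcr (-3.59), which is also counted in the satellite cell list above. Peg3, a zinc finger protein, was 12.16 to 13.74 in SP and 13.96 to 14.65 in MP (-1.50, adjusted p 0.00214). Mest fell 3.72-fold, Meg3, a long non-coding RNA, 3.70-fold and Plagl1, a growth-restraining transcription factor, 2.80-fold. Sgce, a sarcoglycan, fell 2.20-fold (adjusted p 0.0144; 0.0892 with the GAPDH covariate). Of 19 serine and one-carbon genes 7 fell and none rose, with a median of -0.39. Psat1, which acts in serine synthesis, was 8.44 to 9.79 in SP and 11.48 to 12.38 in MP, 6.33-fold lower (adjusted p 6.38e-07), and Mthfd2, a mitochondrial folate enzyme, fell 2.94-fold, although a second probe set of Mthfd2 read -0.24.

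Of 19 mesenchymal and limb transcription factor genes, chosen in the same way, 7 fell and 3 rose. The count of 3 was 0 without MP 2 and 1 without MP 1, MP 3, MP 4, SP 4 or SP 5, without SP 4 and 5, in a fit of the muscle arrays alone, with a floor at the 10th percentile or with no filter. That of 7 was 3 with a filter at the median signal. Zic1, a zinc finger factor, fell 4.08-fold (adjusted p 4.79e-05), and Six2 3.16-fold, En1 2.60-fold and Prrx2 2.47-fold, all homeobox factors. The Prrx2 call was lost with the GAPDH covariate (adjusted p 0.0504) and without SP 4 and 5 (0.0871). The 3 that rose with all arrays were Foxc1 (1.20), Lhx6 (1.03) and Msx1 (1.02). Twist1, a factor of mesenchymal cells, fell 2.50-fold (adjusted p 0.0199), a call lost without MP 2 (0.0625), MP 4 (0.0581) or SP 3 (0.0601).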
